A study of Mus musculus with 7 samples.

Results

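Transcripts of 8 genes through which the oocyte touches its surroundings were described in single germinal vesicle (GV) oocytes with and without SETD1B. The genes were Gja4, Cdh1, Cdh2, Cdh3, Ctnnb1, Itgb1, Itga6 and Itgb6. For each gene the transcript that the deposited table names for it on the gene's own strand was taken, and the one with the highest mean over 7 libraries where there were several. This rule found 7 of the 8 genes among 33437 oocyte transcripts. Ctnnb1 had no transcript named for it on its own strand, and the transcript that covers its position is given in its place.

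GV oocytes are the fully grown oocytes that have not yet resumed meiosis. All females were C57BL6 by the labels (C57BL/6OlaHsd in the methods of the study), 21 days old and labelled as homozygous for a floxed Setd1b gene, which encodes an H3K4 methyltransferase. The 4 Setd1b cKO libraries came from females with Gdf9-Cre, a recombinase expressed in oocytes from early folliculogenesis onwards, and the 3 Setd1b WT libraries from females labelled as Gdf9-Cre negative, although the methods of the study also count females with Gdf9-Cre and 1 unfloxed allele as WT. The replicates are single oocytes, 1 in each library, and which of them came from the same female is not labelled, so the p-values measure the spread between oocytes. The values are reads per 1000000 mapped reads (RPM), from libraries of 8582493 to 12972366 mapped reads.

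An oocyte grows inside a follicle, joined to the granulosa cells around it by gap junctions and adherens junctions. Gap junctions are channels of connexins that let small molecules pass between the cells. In adherens junctions, cadherins of neighbouring cells bind each other outside the membrane, and beta-catenin links their tails to the cytoskeleton and can also act in transcription. Integrins are pairs of an alpha and a beta subunit that bind matrix proteins, and on the egg surface they sit beside tetraspanins.

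Some features of the libraries bear on every value. cKO replicate 4 and WT replicate 3 stood apart from the others of their genotype: the chi-square statistic per degree of freedom between their reads and those of the other libraries of the genotype was 48.39 to 90.21, against 15.57 to 25.47 among the rest. The share of mapped reads outside the transcripts was 14.6% ± 1.30 (SD, n = 4) in cKO oocytes and 9.73% ± 0.165 (SD, n = 3) in WT oocytes. Over 11 oocyte markers such as Zp3, Gdf9 and Dppa3 the summed level was 21173 to 24040 RPM in cKO and 25159 to 28176 RPM in WT oocytes, and limma called 0 of the 11, as did voom on the recovered reads, with 1 at an unadjusted p under 0.05. Fits without both libraries that stood apart, and with scaling by reads within transcripts, were among the alternatives run. The part of these differences in the results was not otherwise tested. The transcript at the position of Setd1b had 8.31, 16.7, 12.8 and 2.68 RPM in the cKO and 17.7, 16.3 and 8.61 RPM in the WT libraries, and since it counts the whole transcript it does not check the deletion of the floxed segment.

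Itgb6, the integrin beta subunit 6, is shown first by sequence, because the oocyte transcript counted for it began inside the gene. The oocyte transcripts were defined before this study, and where reads begin in these 7 libraries was not examined. The counted transcripts of Ctnnb1 and Itga6 also began inside their genes, 922 and 35329 bases downstream of the outermost annotated start. For Itga6 that start is not of a protein-coding transcript. The transcript lay at chr2:60598292-60673754 on the minus strand of GRCm38. Its 5′ end fell on the annotated start of Itgb6-208, and the start of the protein-coding transcript Itgb6-202 lay 43 bases further downstream. The outer start of the gene, used by the protein-coding Itgb6-201, lay 48889 bases upstream of that 5′ end. The 2 RefSeq promoters of the gene (GRCm38.p6) are printed 5′ to 3′, from 250 bases before to 50 after the start. CG dinucleotides are in capitals. They compare the start near which the counted transcript begins with the outer start, which it does not reach.
Itgb6 inner, chr2:60673644-60673943: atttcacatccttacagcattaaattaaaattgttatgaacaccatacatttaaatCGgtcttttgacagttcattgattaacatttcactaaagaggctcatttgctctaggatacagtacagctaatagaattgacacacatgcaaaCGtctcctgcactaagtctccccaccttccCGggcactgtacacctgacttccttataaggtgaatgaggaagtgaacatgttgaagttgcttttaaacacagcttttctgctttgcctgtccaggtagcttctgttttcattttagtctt
Itgb6 outer, chr2:60722554-60722853: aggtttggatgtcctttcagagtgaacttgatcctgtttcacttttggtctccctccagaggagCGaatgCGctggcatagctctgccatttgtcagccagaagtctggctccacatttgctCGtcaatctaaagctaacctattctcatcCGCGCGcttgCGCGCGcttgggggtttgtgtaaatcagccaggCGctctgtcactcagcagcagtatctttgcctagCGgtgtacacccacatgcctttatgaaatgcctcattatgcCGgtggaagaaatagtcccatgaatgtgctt

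The inner window held 3 CG dinucleotides and the outer window 12, where the median of 32851 RefSeq promoter windows of the same length was 7. In 31.4% of all windows there were as few as in the inner one or fewer, and in 62.1% as few as in the outer one or fewer. The letters TATAA were found in the inner window on its own strand, 47 bases upstream of the RefSeq start, overlapping a match on the other strand, and in the outer window on neither strand. Of all windows, 24.9% held TATAA on at least 1 strand. The 5′ end of the oocyte transcript was 61 bases upstream of the inner RefSeq start. The TATAA letters of the inner window thus lie downstream of that 5′ end, within the transcript.

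**Figure D1:**
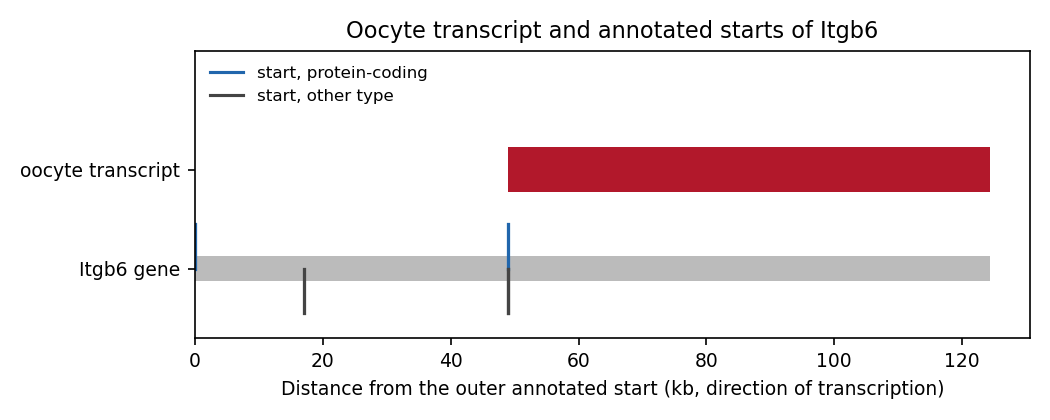
The transcript counted in oocytes (red bar) and the annotated span of Itgb6 (grey bar) along the distance from the outer annotated start, in kb. Vertical lines mark annotated starts, protein-coding ones above and others below, and the oocyte transcript begins 48889 bases downstream of the outer start.

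For Gja4, which has by far the most reads of the 8, the RefSeq promoter on the minus strand is printed in the same way as an example of a gene with 1 annotated start.
Gja4, chr4:127313990-127314289: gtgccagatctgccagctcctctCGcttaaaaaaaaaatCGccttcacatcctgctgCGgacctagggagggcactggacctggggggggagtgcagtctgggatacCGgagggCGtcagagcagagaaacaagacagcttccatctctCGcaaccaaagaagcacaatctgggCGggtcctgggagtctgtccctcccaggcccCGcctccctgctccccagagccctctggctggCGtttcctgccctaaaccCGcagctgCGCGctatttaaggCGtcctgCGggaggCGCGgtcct

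It held 16 CG dinucleotides, and 68.6% of all windows had as many or fewer. TATAA was on neither strand. The oocyte transcript, chr4:127311418-127314647, began 608 bases upstream of the annotated start, outside this window. Among the other members, the Itgb1 window held 27 CG dinucleotides and the Ctnnb1 windows 46 and 51. Cdh1, Cdh2, Cdh3 and Itga6 are described without a promoter sequence.

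Of the 7 members found by the rule, Itgb6 was higher in Setd1b cKO oocytes and 0 were lower. A gene was called when its Benjamini-Hochberg adjusted p in limma was under 0.05 and its change was over 2-fold on the log2(RPM + 1) scale, where the change of a gene with few reads comes out too small. Of all 18179 transcripts tested, 5.71% were called, 3.76% higher and 1.95% lower in cKO oocytes. The split of these calls, 683 higher and 355 lower, became 458 higher and 531 lower after centring the libraries on their median transcript, which moved the median log2 fold change of all transcripts from 0.12 to -0.03. For Cdh3, Itga6 and Itgb6, 3 of the 7, the cKO and WT values were fully separate, which held for 20.3% of all transcripts tested. At an unadjusted p under 0.05 limma gave 2 of the 7 members higher, Itgb6 and Cdh2, and 1 lower, Cdh3, where 14.2% of all transcripts tested were higher and 7.52% lower by this rule, and voom on the recovered reads called Itgb6 alone. With Ctnnb1 added by position, the counts were 1 called and 3 without overlap of 8.

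**Figure D2:**
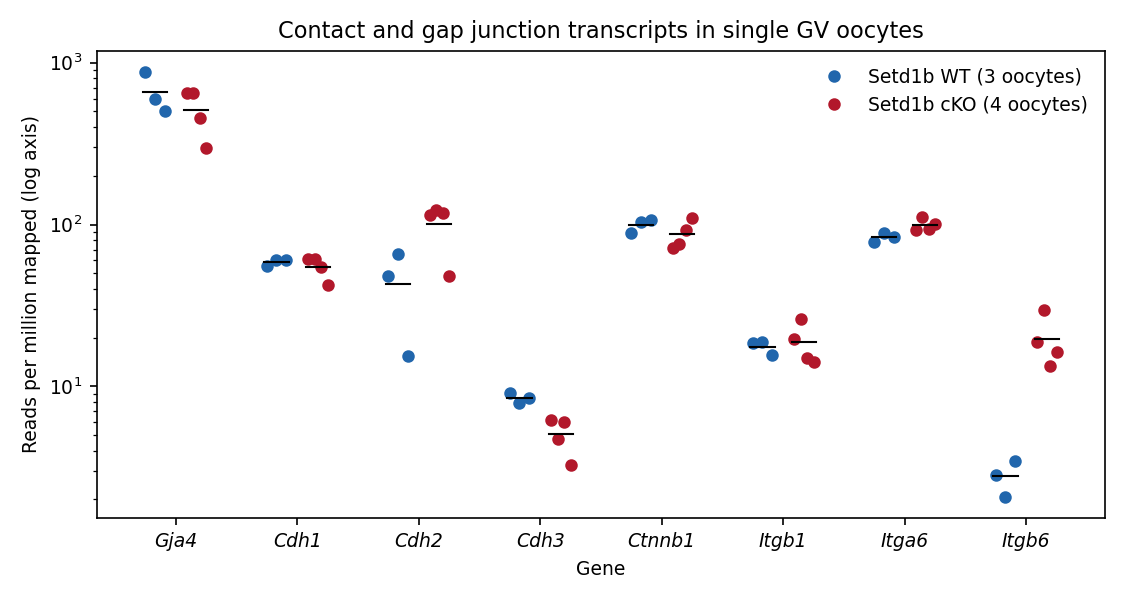
RPM on a log axis for the 8 genes in each oocyte, WT in blue (3 oocytes) and cKO in red (4 oocytes), with the group mean as a black line. For Itgb6 all cKO oocytes lie above all WT oocytes, and for Cdh3 all lie below.

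Gja4 encodes connexin 37, the connexin of the oocyte side of the gap junctions with granulosa cells. It had 646, 654, 456 and 298 RPM in the cKO libraries and 877, 596 and 504 RPM in the WT libraries. The genotypes overlapped, and the library with the least was in both genotypes the one that stood apart. The means were 513 ± 171 RPM (SD, n = 4) in cKO and 659 ± 194 RPM (SD, n = 3) in WT oocytes. The log2 fold change was -0.39 (SE 0.32, 95% interval -1.09 to 0.31, adjusted p = 0.536 by limma). The interval reaches from a fall past 2-fold to a small rise.

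Per kb of the longest annotated protein-coding transcript, the levels could be compared between genes, on the assumption that the oocyte transcripts have similar exons. Gja4 was highest in both genotypes, with 391 ± 115 RPM per kb (SD, n = 3) in WT and 305 ± 101 RPM per kb (SD, n = 4) in cKO oocytes. In WT oocytes Ctnnb1 followed with 27.5 ± 2.67, Itga6 with 19.3 ± 1.15, Cdh1 with 13.3 ± 0.631, Cdh2 with 8.90 ± 5.31, Itgb1 with 4.61 ± 0.465, Cdh3 with 1.94 ± 0.129 and Itgb6 with 0.581 ± 0.144 RPM per kb. Cdh2 overlapped both of its neighbours in this order, and the others did not overlap theirs. In cKO oocytes the order was Ctnnb1 with 24.1 ± 4.83, Itga6 with 23.1 ± 2.01, Cdh2 with 20.9 ± 7.37, Cdh1 with 12.4 ± 2.01, Itgb1 with 4.91 ± 1.43, Itgb6 with 4.06 ± 1.47 and Cdh3 with 1.15 ± 0.313 RPM per kb. There the first 4 of these overlapped from neighbour to neighbour, as did Itgb1 and Itgb6. Itgb6 was thus last of the 8 in WT oocytes, and above Cdh3 in cKO oocytes.

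By the mean absolute difference of centred log2(RPM + 1) over the 7 libraries, among the 6720 named genes that averaged 8 RPM or more, the genes most like Gja4 were Ctnnbl1 (0.0561), Pramef20 (0.0685) and Mutyh (0.0735). Like Gja4, all of them had their lowest value in cKO replicate 4 and their highest in WT replicate 1. This comes with their choice by likeness over the same libraries.

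The cadherins differed among themselves. Cdh1, E-cadherin, lay at chr8:106603254-106670248 on the plus strand. It had 61.2, 60.9, 54.7 and 42.2 RPM in the cKO and 55.6, 60.7 and 60.2 RPM in the WT libraries. The genotypes overlapped, with cKO replicate 4 lowest, and the log2 fold change was -0.12 (SE 0.21, 95% interval -0.58 to 0.35, adjusted p = 0.811 by limma). The interval leaves out a change of 2-fold in either direction.

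Cdh2, N-cadherin, had 115, 124, 119 and 48.0 RPM in the cKO and 47.8, 66.1 and 15.3 RPM in the WT libraries. cKO replicates 1 to 3 were above all WT libraries, and cKO replicate 4 lay between WT replicates 1 and 2. The means were 101 ± 35.7 RPM (SD, n = 4) in cKO and 43.1 ± 25.7 RPM (SD, n = 3) in WT oocytes. The log2 fold change of 1.35 (SE 0.48, 95% interval 0.29 to 2.40) missed the threshold, with an adjusted p of 0.127 by limma. Without cKO replicate 4 it was 1.67 with an adjusted p of 0.0303 and was called. Without WT replicate 3 it was 0.74, with an adjusted p of 0.295. Without both libraries it was 1.07 with an adjusted p of 0.00396, so the call for Cdh2 rests on how these oocytes are treated. Inha, an inhibin subunit made by granulosa cells, was also high in cKO replicates 1 to 3, at 7.03, 11.4 and 13.2 RPM, and low in cKO replicate 4, at 0.583 RPM, with 0.810, 4.32 and 0 RPM in the WT libraries. Hsd17b1, an enzyme of estrogen synthesis, had 0.594, 2.06, 1.74 and 0 RPM in the cKO and 0.486, 0 and 0.187 RPM in the WT libraries, also lower in cKO replicate 4 than in the other cKO libraries. The sum of the 18 granulosa cell markers was 205 to 391 RPM in cKO and 249 to 415 RPM in WT oocytes, Esr2 had 76.0 to 95.8 RPM against 134 to 158 RPM, and Amh and Foxl2 had at most 2 reads in any library. Of the other granulosa cell markers tested, Nr5a2 was highest in cKO replicate 4, at 50.8 RPM against 32.5 to 37.3 RPM in the other cKO libraries. Gata4, at 7.22 RPM, and Gja1, at 1.63 RPM, were not lowest there. Serpine2, Fshr, Kitl, Cyp19a1 and Esr2 were lowest there among the cKO libraries. Inha, Hsd17b1, Esr2 and Nr5a2 were chosen after their values were seen. The part of granulosa cell RNA in the values of Cdh2 was not tested.

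Cdh3, P-cadherin, had 6.24, 4.69, 6.01 and 3.26 RPM in the cKO and 9.07, 7.94 and 8.51 RPM in the WT libraries, from 28 to 112 reads. All cKO libraries were below all WT libraries. The log2 fold change was -0.68 (SE 0.28, 95% interval -1.30 to -0.07), with an unadjusted p of 0.0332 and an adjusted p of 0.182 by limma. The transcript, chr8:106509734-106594781, ran 37484 bases past the annotated end of Cdh3 towards Cdh1 on the same strand. How many of its reads lie in that extension was not measured.

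**Figure D3:**
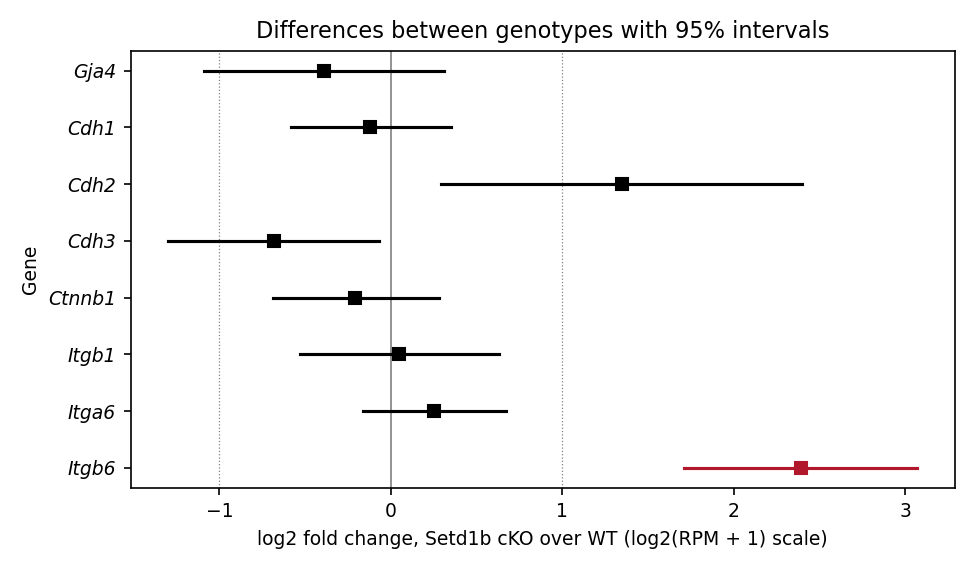
Log2 fold changes of the 8 genes, cKO over WT, on the log2(RPM + 1) scale, with 95% intervals as lines; dotted lines mark a 2-fold change and red marks the gene that was called. The interval of Itgb6, 1.71 to 3.07, lies wholly beyond 2-fold, and that of Cdh2, 0.29 to 2.40, does not.

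Ctnnb1 encodes beta-catenin. The plus-strand transcript chr9:120930138-120960507 shared 0.971 of the union of its span with that of the annotated gene and was chosen by position after the table had been seen. It had 71.6, 75.6, 92.2 and 110 RPM in the cKO and 88.8, 103 and 107 RPM in the WT libraries. The genotypes overlapped, and the log2 fold change was -0.21 (SE 0.22, 95% interval -0.69 to 0.28, adjusted p = 0.652 by limma). A transcript on the other strand that the table names Ctnnb1 overlapped this one by 240 bases, with a mean of 39.9 RPM. The sources used here do not give the strand setting of the counting, and reads in those bases cannot be told apart.

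Itga6 and Itgb1 encode the subunits of the laminin receptor alpha 6 beta 1, which is found on the egg surface. Itga6 had 92.3, 111, 94.0 and 100 RPM in the cKO and 78.3, 88.2 and 83.3 RPM in the WT libraries. All cKO libraries were above all WT libraries, but by little. The log2 fold change was 0.25 (SE 0.19, 95% interval -0.16 to 0.67, adjusted p = 0.496 by limma). The transcript, chr2:71780945-71858416 on the plus strand, began 5984 bases upstream of the nearest annotated start, and a second one named Itga6 had at most 4 reads in any library.

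Itgb1, at chr8:128684709-128733200 on the plus strand, had 19.7, 26.1, 15.0 and 14.2 RPM in the cKO and 18.5, 18.7 and 15.5 RPM in the WT libraries. The WT values lay within the range of the cKO values. The log2 fold change was 0.05 (SE 0.26, 95% interval -0.53 to 0.63, adjusted p = 0.939 by limma), and its sign turned with centring on the median transcript, to -0.10, and with quantile normalisation, to -0.05. A change of 2-fold lay outside the interval for both subunits.

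Itgb6 had 18.8, 29.6, 13.3 and 16.3 RPM in the cKO libraries, from 140 to 359 reads, and 2.83, 2.08 and 3.46 RPM in the WT libraries, from 27 to 37 reads. The lowest cKO library was above the highest WT library. The means were 19.5 ± 7.07 RPM (SD, n = 4) and 2.79 ± 0.691 RPM (SD, n = 3), a ratio of 6.98. The log2 fold change on the log2(RPM + 1) scale was 2.39 (SE 0.31, 95% interval 1.71 to 3.07, adjusted p = 0.00336 by limma). Leaving out each library in turn gave 2.18 to 2.55, and leaving out both libraries that stood apart gave 2.58 with an adjusted p of 0.000357. In scaling by centring it was 2.24 and in quantile normalisation 2.20, and it passed the threshold under both.

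Beta 6 is known to pair with 1 alpha subunit, alpha v, in a receptor of epithelia that activates latent TGF-beta. The transcript of that partner, Itgav, had 0.693, 1.56, 1.31 and 0.350 RPM in the cKO and 0.0810, 0.771 and 0 RPM in the WT libraries. It did not pass the filter on low values, and no library held more than 19 of its reads. It was chosen after its values were seen.

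The genes most like Itgb6 in profile, by the measure used for Gja4, were Eri1 (0.302), Churc1 (0.310) and 4930592C13Rik (0.329). Each had all cKO libraries above all WT libraries, which comes with their choice by likeness over the same libraries. The nearest tested transcript upstream of Itgb6, named Rbms1 and 76439 bases away on the same strand, was also called higher in cKO oocytes, with 7.23 to 13.0 RPM against 0.162 to 0.925 RPM (log2 fold change 2.86, SE 0.31, adjusted p = 0.00221 by limma). Rbms1 and Pla2r1 were looked at as neighbours after their values were known. The nearest downstream, Pla2r1, 44984 bases away, had 2.47 to 3.95 RPM against 3.65 to 4.63 RPM and an adjusted p of 0.616.

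**Figure D4:**
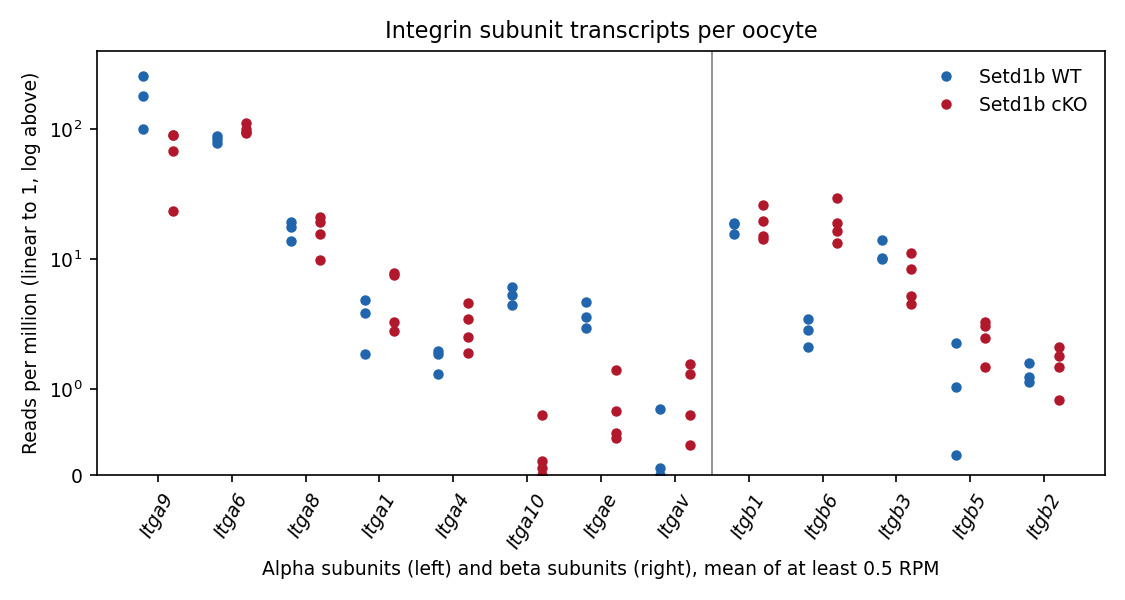
RPM of integrin subunits with a mean of at least 0.5 RPM, one point per oocyte, WT in blue and cKO in red; the axis is linear up to 1 and logarithmic above. Itgb6 lies higher in cKO oocytes, Itga9, Itga10 and Itgae lie lower, of which Itga9 was not called, and Itgav stays below 2 RPM in both genotypes.

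The other genes of these systems were taken from lists of connexins, cadherins, catenins, integrins, their adaptors and ligands, and further junction proteins. Of 130 such genes with a transcript, 91 were tested, of which 1 was called higher and 5 lower, 6 in all, where 5.71% of all transcripts tested were called. Among the 5 lower, Itga10, Itgae and Panx2 passed the filter on low values mainly through the WT libraries. The median log2 fold change of the 91 was 0.16, against 0.12 for all transcripts tested. Where a gene had no transcript named for it, the one on its strand that shared at least 0.5 of its span was used, which gave 19 of these genes.

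Of 7 tested integrin alpha subunits 0 were called higher and 2 lower. Itga10, a collagen receptor subunit that pairs with beta 1, had 0.693, 0.165, 0.0871 and 0 RPM in the cKO and 4.45, 5.32 and 6.08 RPM in the WT libraries. At most 7 reads of it were found in a cKO library and at least 55 in a WT library (log2 fold change -2.37, SE 0.29, adjusted p = 0.00305 by limma). Itgae, the alpha E subunit, whose receptor binds E-cadherin, had 0.495, 0.741, 0.435 and 1.40 RPM against 3.56, 2.93 and 4.68 RPM, and a log2 fold change of -1.43 (SE 0.30, adjusted p = 0.0203). Its call was lost without cKO replicate 1 or 3 or any 1 of the WT replicates, with adjusted p from 0.0586 to 0.0758, and with no filter (0.0735). With a pseudocount of 5 RPM the changes of Itga10 and Itgae were under 2-fold, at log2 fold changes of -0.97 and -0.60. Itga10 reached 1 RPM in the WT libraries alone, and Itgae in these and cKO replicate 4, so both passed the filter through WT oocytes. With a filter on a mean of at least 4 RPM neither was tested. Itga9 had 89.8, 89.5, 68.2 and 23.2 RPM in the cKO and 254, 178 and 99.3 RPM in the WT libraries. The genotypes did not overlap, but the log2 fold change of -1.45 missed the threshold (adjusted p = 0.0972 by limma). It is named after its values were seen. Of 5 tested beta subunits Itgb6 alone was called. Itgb3 had 4.53 to 11.2 RPM in cKO and 9.96 to 13.9 RPM in WT oocytes (adjusted p = 0.298), and Itgb5 1.48 to 3.27 RPM and 0.231 to 2.27 RPM (adjusted p = 0.247).

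Of 12 tested genes in the list of integrin ligands, which also holds TGF-beta genes, 0 were called higher and 1 lower. Binding of their products to any integrin was not tested. Tgfb2, a secreted growth factor and not a matrix protein, had 360, 362, 274 and 312 RPM in the cKO and 731, 772 and 590 RPM in the WT libraries. The genotypes did not overlap, and the log2 fold change was -1.09 (SE 0.21, 95% interval -1.56 to -0.63, adjusted p = 0.0145 by limma). It was lost without cKO replicate 3, WT replicate 1 or WT replicate 2, with an adjusted p from 0.0548 to 0.0852, and in quantile normalisation, where it was -0.97.

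Of 15 tested partners of beta-catenin 1 was called, lower. Lef1, a DNA-binding protein that recruits beta-catenin, had 48.9, 31.6, 23.0 and 38.7 RPM in the cKO and 105, 127 and 93.7 RPM in the WT libraries. The genotypes did not overlap (log2 fold change -1.63, SE 0.27, 95% interval -2.22 to -1.03, adjusted p = 0.00798 by limma). It missed the threshold without WT replicate 2, where the adjusted p was 0.055, and with no filter, where it was 0.0604. Of 8 tested catenins Ctnna2 was called higher, with 8.02, 6.09, 8.62 and 10.7 RPM against 3.16, 4.01 and 2.81 RPM (log2 fold change 1.10, adjusted p = 0.0426). Its transcript shares 0.345 of the gene's span, and the call was lost when any 1 library other than cKO replicate 2 was left out, with adjusted p from 0.0613 to 0.140. It was also lost with a pseudocount of 5 RPM (adjusted p = 0.0512), with no filter (0.0808), after centring (0.0818), after quantile normalisation (0.101), with voom (0.06) and without both libraries that stood apart (0.0937).

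Of 9 tested connexins and pannexins 1 was called, lower. Panx2, a pannexin, had 1.68, 0.247, 1.22 and 0 RPM in the cKO and 5.18, 4.39 and 3.37 RPM in the WT libraries (log2 fold change -1.67, SE 0.38, adjusted p = 0.0282 by limma). It was lost without cKO replicate 2 or 3 or WT replicate 1 or 2, with adjusted p from 0.0513 to 0.114. It was also lost with voom (adjusted p = 0.0691), on the log2 values as deposited (0.0813), with a pseudocount of 0.1 RPM (0.0855) and with no filter (0.142), and with a pseudocount of 5 RPM its change was under 2-fold. Panx2 reached 1 RPM only in the WT libraries and in cKO replicates 1 and 3. With a filter on a mean of at least 4 RPM it was not tested. Gja1, connexin 43, the connexin of granulosa cells, had 0.0936 to 5.14 RPM.

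In the cadherin, adaptor, tetraspanin and plaque lists 0 genes other than members were called by limma or by voom, and at an unadjusted p under 0.05 limma gave 2, 1, 1 and 1 genes higher and 0 lower, beside the 14.2% higher and 7.52% lower of all transcripts. The cadherins outside the members with the highest mean RPM were Cdh8, with 105 to 127 RPM in cKO and 84.6 to 119 RPM in WT oocytes, and Cdh9, with 16.5 to 21.1 RPM and 9.47 to 13.9 RPM. Of 12 integrin adaptors, Fermt2 (kindlin 2) had 45.7 to 142 RPM and 47.0 to 107 RPM, and Rsu1 30.9 to 48.5 RPM and 28.3 to 44.0 RPM. Of 4 egg surface tetraspanins and partners, Cd9, needed for sperm and egg fusion, had 228 to 404 RPM and 350 to 453 RPM (adjusted p = 0.441), and Izumo1r, the receptor for sperm IZUMO1, 172 to 219 RPM and 221 to 275 RPM, from a transcript that shares 0.216 of its span. Of 14 nectins and plaque proteins, Nectin3 had 109 to 168 RPM and 137 to 192 RPM, and Cgn (cingulin) 16.4 to 89.4 RPM and 30.6 to 109 RPM.

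**Figure D5:**
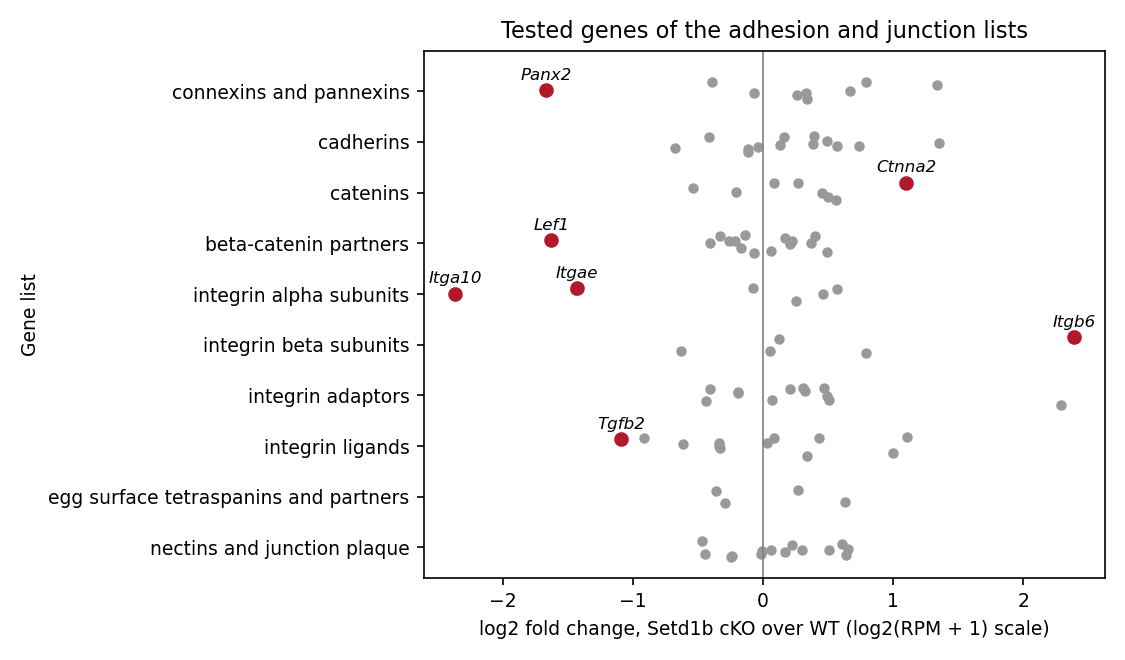
Log2 fold changes, cKO over WT, of the tested genes in each list, one point per gene, on the log2(RPM + 1) scale; called genes are red and named. Besides Itgb6 and Ctnna2 the called genes, Panx2, Lef1, Itga10, Itgae and Tgfb2, lie on the lower side.

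Markers of other ovarian cells were measured in the same libraries. The summed level of 18 granulosa cell markers was 205 to 391 RPM in cKO and 249 to 415 RPM in WT oocytes, most of it from Serpine2, Esr2 and Nr5a2. Of these, 9 were tested, and 0 were called by limma or by voom, with 1 higher and 1 lower in cKO oocytes at an unadjusted p under 0.05. The one higher was Inha, with 5 to 152 reads in the cKO and 0 to 56 in the WT libraries (log2 fold change 1.70, SE 0.76, adjusted p = 0.225 by limma). The one lower was Esr2, an estrogen receptor, whose genotypes did not overlap, with an adjusted p of 0.0421 and a change under 2-fold (log2 fold change -0.77). Of the markers under the filter, Hsd17b1 had 0 to 25 reads in cKO and 0 to 6 in WT libraries, and Amh and Foxl2 had at most 2 in any library. Of 9 theca and stroma markers 1 passed the filter and was called, Dcn, with 5.15 to 7.25 RPM against 0.891 to 3.09 RPM. The sum, most of it from Dcn in cKO oocytes, was 7.32 to 8.65 RPM in cKO and 2.62 to 3.74 RPM in WT oocytes. Markers other than Dcn had few reads and went both ways. Col1a2 and Col3a1 had 0 reads in all cKO libraries and up to 4 and 8 in a WT library. Cyp11a1 had 0 to 8 reads in cKO and 5 to 14 in WT libraries. Pdgfra had 0 to 11 reads against 0 to 1, and Acta2 0 to 10 against 0. Over 5 blood and endothelium markers, of which 1 was tested and not called, the sum was 7.31 to 18.0 RPM and 13.0 to 19.6 RPM. Hba-a1, Hbb-bs and Lyz2 were at 0 in all libraries. The part of these markers in the changes of the contact genes was not tested.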

How the data were processed

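Single GV oocytes were sequenced by the authors after SMARTer cDNA amplification and NEBNext library preparation. Per the study's methods, reads were trimmed with trim galore, mapped with Hisat to GRCm38, filtered for mapping quality and quantified in Seqmonk over earlier defined oocyte transcripts with isoforms merged. The submitters' processing notes name bcl2fastq 1.8.4 and featureCounts 1.4.4. The values deposited are on a log2 scale, as RPM that the authors computed over mapped reads. They gave whole reads for 99.992% to 100% of values above a floor of 0.9 read, within 0.05 read. RPM at 3 reads was 0.231 to 0.350, and counting error alone sets this.

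Values were taken as log2(RPM + 1), with 0 reads as 0 RPM. Transcripts that reached 1 RPM in 3 or more libraries entered the test, made with limma 3.58.1 (lmFit, eBayes with trend) in R 4.3.3, cKO against WT, without covariates, and called at an adjusted p under 0.05 and over 2-fold. The fit was tested on simulated data. Python 3.11.15 with numpy 2.4.6, pandas 2.3.3 and matplotlib 3.10.9 did the rest. Named genes were the members, in each list the other genes that were called or else the 2 of them with the highest mean, markers, and the 3 genes most like Gja4 and Itgb6. Itga9, Itgav, Rbms1 and Pla2r1 fall outside this rule. The members and lists were chosen with earlier results of these data known. Positions are from GENCODE M21. Alternatives were other pseudocounts, filters and scalings, eBayes without trend, voom on the recovered reads, a replicate block and single libraries left out.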

Additional observations from a re-analysis of the deposited data

Results flagged for a closer look

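Cdh2 in cKO replicate 4 lay far from the other cKO oocytes. It had 48.0 RPM, and the next lowest library had 115 RPM. The gap was 0.882 of the range of the 4 libraries, above Dixon's critical value. Of 18 genes and marker sums examined in this way 1 was found, and chance gives about 1 in 20.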

How the results depend on the processing

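Itgb6 passed the threshold in all alternatives run, with log2 fold changes from 1.62 to 2.78. The number of members called was 1, and 2 with a replicate block and 2 with cKO replicate 4 and WT replicate 3 both left out (an alternative added after the data were seen). It ranged from 1 to 2 without single libraries. The added member was Cdh2. The number of other list genes called was 6. It was 2 with a pseudocount of 5 RPM, 2 with no filter, 3 with a mean of at least 4 RPM, 8 with the replicate block and 9 with both libraries left out, and ranged from 1 to 7 without single libraries. The share of all transcripts called moved as well, from 5.71% to 3.04%, 0.906%, 6.17%, 7.72% and 8.45% in that order, and to 1.59% to 7.11% without single libraries. Limiting the lists to transcripts that share at least 0.5 of the gene's span, also added later, gave 5.

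The sign of Cdh1 turned to 0.00 with the replicate block and to 0.02 with both libraries left out, and ranged from -0.17 to 0.00 without single libraries. That of Itgb1 was -0.10 after centring on the median transcript and -0.05 after quantile normalisation, and ranged from -0.11 to 0.17 without single libraries. The cause was not tested.

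Same-numbered oocytes shared only a number: their deviations from the group means correlated at 0.192, 0.295 and -0.129. In the block fit cKO replicate 4 carries no information on genotype. The block ended the call of Ctnna2 (log2 fold change 0.99, adjusted p = 0.074) and moved all calls from 683 higher and 355 lower to 924 and 479. Depth limits the low genes most: Itgb6 had 27 to 37 reads in WT oocytes, and Itgav at most 19 in any library.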
